A study of Lotus japonicus with 36 samples.

Results

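Of the 41299 loci measured by RNA-seq in nodules of Lotus japonicus MG-20, 286 kept most of their level on day 1 of nitrate, were at 50% of it or less on day 2, fell further by day 6 and came back after nitrate was withdrawn. Nodules are root organs in which this legume hosts bacteria that fix nitrogen. T0 is the untreated group, 4 weeks post-inoculation. T1, T2, T3, T4, T5 and T6 had 1, 2, 3, 4, 5 and 6 days of 10 mM KNO3, and R1, R2, R3, R4 and R5 had 1, 2, 3, 4 and 5 days without it afterwards, with 3 libraries in each of the 12 groups. All plants were of 1 accession and all were inoculated. No group of untreated plants was older than T0, and thus effects of nitrate and of age cannot be told apart. The labels do not give the nitrate day on which removal began.

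The members were chosen on the deposited FPKM values, which are scaled to model length and library size. The transcript model with the highest mean over all 36 libraries stood for each locus. With v as the mean FPKM of a group plus 1, a member had a T0 mean FPKM from 5 to below 200. It also had v(T1) above v(T0)/1.5, v(T2) at or below v(T0)/2, v(T6) at or below v(T0)/4 and v(R5) at or above v(T0)/2. The thresholds thus used the 5 groups T0, T1, T2, T6 and R5, and their values are given as a description without a test. The other 7 groups, T3, T4, T5 and R1 to R4, took no part in the thresholds, and every test below was made on them alone. These 7 groups entered only the choice of model at loci with more than 1 model. The rule still bears on them: a locus chosen for a T6 level below its T2 limit and for a regained level in R5 had to fall and rise on some of the days between. The direction of those changes is therefore largely built in, and the results describe on which days, by how much and in how many members they came.

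As background, a mature nodule supplies its host with fixed nitrogen at the cost of plant carbon, and legumes given nitrate lower nitrogen fixation and can bring their nodules to early senescence. The loss is known to be reversible when nitrate is taken away soon enough. The transcript IDs of the files could not be paired with gene names. A RefSeq gene table of another Lotus accession matched 0 of them, so members are named by ID, no role is given to any of them, and the tissue label could not be checked against marker genes. In whole nodules, fewer cells of a type and less RNA per cell cannot be told apart.

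Libraries held 34194054 to 45795038 estimated counts, with TMM factors from 0.81 to 1.21. In 2 of the groups outside the thresholds the libraries lay apart. Over the 286 members, the median of log2((FPKM + 1)/(T0 mean + 1)) was -1.51 in R4 replicate 1, -0.65 in R4 replicate 2 and -0.42 in R4 replicate 3. In T3 the median level was 37.9% of T0 in replicate 1, 29.3% in replicate 2 and 23.0% in replicate 3. In R5, which the rule used, it was 99.4% in replicate 1, 62.7% in replicate 2 and 82.9% in replicate 3. The SD of a member between libraries, on the scale of log2(FPKM + 1), had a median of 0.57 in R4, 0.44 in T3 and 0.38 in R5, against 0.16 to 0.24 in the other groups.

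The edges of the group were not sharp. The member nearest the day 1 limit had v(T1)/v(T0) of 0.668 and the nearest locus outside it 0.667, and 278 loci missed that threshold alone. At the day 2 limit the nearest values were 0.4993 inside and 0.5002 outside, with 528 loci missing that threshold alone. At the T6 limit they were 0.25 and 0.251 (242 loci), and at the R5 limit 0.504 and 0.498 (65 loci). At the edges of the T0 range they were 5.03 inside and 4.97 outside, and 198.7 inside and 202.4 outside.

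Members spanned the whole range of T0 levels that the rule allowed. In T0, 79 members had a mean FPKM from 5 to below 10, 148 from 10 to below 50 and 59 from 50 to below 200, with a median of 18.5 FPKM. Their summed share of the library was 1.21 ± 0.09% in T0, 0.429 ± 0.030% in T2, 0.110 ± 0.012% in T6, 0.754 ± 0.271% in R4 and 1.03 ± 0.26% in R5 (SD, n = 3 libraries each).

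The members left their untreated level in a small first move, a large drop on day 2 and a slower decline to day 6. Per library, the median over members of log2((FPKM + 1)/(T0 mean + 1)) averaged -0.38 ± 0.12 in T1, -1.35 ± 0.06 in T2, -1.76 ± 0.36 in T3, -2.36 ± 0.12 in T4, -2.59 ± 0.06 in T5 and -2.89 ± 0.08 in T6 (SD, n = 3). Over the 14316 loci in the same range of T0 levels this median stayed between -0.13 and 0.09 from T1 to T5 and was -0.33 in T6. The T1, T2 and T6 values lie within the limits that the rule set. The small first move and the drop by day 2 thus follow from the choice of members. A lower mean in T1 than in T0 was found in 268 of the 286 members (93.7%) and in 43.6% of those 14316 loci. A higher mean was found in 18 members (6.29%) and in 56.4% of those loci. Both groups were used by the rule, so these shares are not free of the choice of members.

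After withdrawal the same median was -2.81 ± 0.01 in R1, -1.89 ± 0.07 in R2 and -2.07 ± 0.14 in R3 (SD, n = 3). It was -0.86 ± 0.58 in R4 and -0.32 ± 0.34 in R5. As a share of its T0 level, the median member stood at 14.3% on the first day without nitrate, 28.2% on the next, 24.2% on the third, 57.7% on the fourth and 81.4% on the last. The median thus stepped up at R2 and again at R4, with the mean of R3 below that of R2. The library medians of R3 and R2 overlapped, with R3 replicate 2 at -1.909 and R2 replicate 1 at -1.941.

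**Figure D1:**
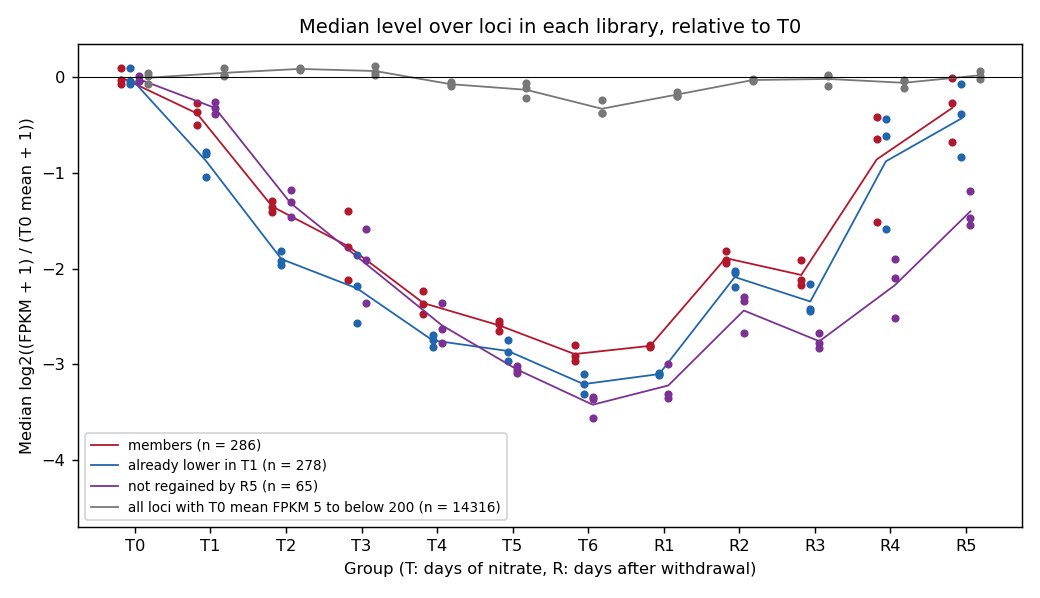
Median over loci of log2((FPKM + 1)/(T0 mean + 1)) in each library (points, 3 per group) and their group mean (line), for the members, for loci already lower in T1, for loci not regained by R5 and for all loci with a T0 mean FPKM from 5 to below 200. The member line falls to -2.89 in T6, rises to -1.89 in R2, is at -2.07 in R3 and ends at -0.32 in R5, and the R4 points lie far apart.

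In FPKM not rescaled by TMM factors, the lowest point of the course fell on the last nitrate day for most members. The lowest group mean was that of T6 in 189 members and that of R1 in 63, with 16 in T5, 15 in T4, 2 in R3 and 1 in R2. The rule required a low T6, and T6 was also low outside the members. Its mean was below that of T5 in 87.8% of members and in 74.97% of the 14316 loci in the T0 range. R1 had a higher mean than T6 in 71.7% of members and in 74.0% of those loci. The placing of T6 below R1 was thus no more common in members than in those loci. In T6, 128 members had a mean FPKM under 1. The share of T0 left in T6 depended on the added 1 in v. With it, the median was 9.30% for members with a T0 mean from 50 FPKM upward, 13.3% for those from 10 to below 50 and 17.0% for those below 10. Without it, the order was reversed, with a median of 8.07% for those from 50 FPKM upward, 7.78% for those from 10 to below 50 and 3.63% for those below 10.

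**Figure D2:**
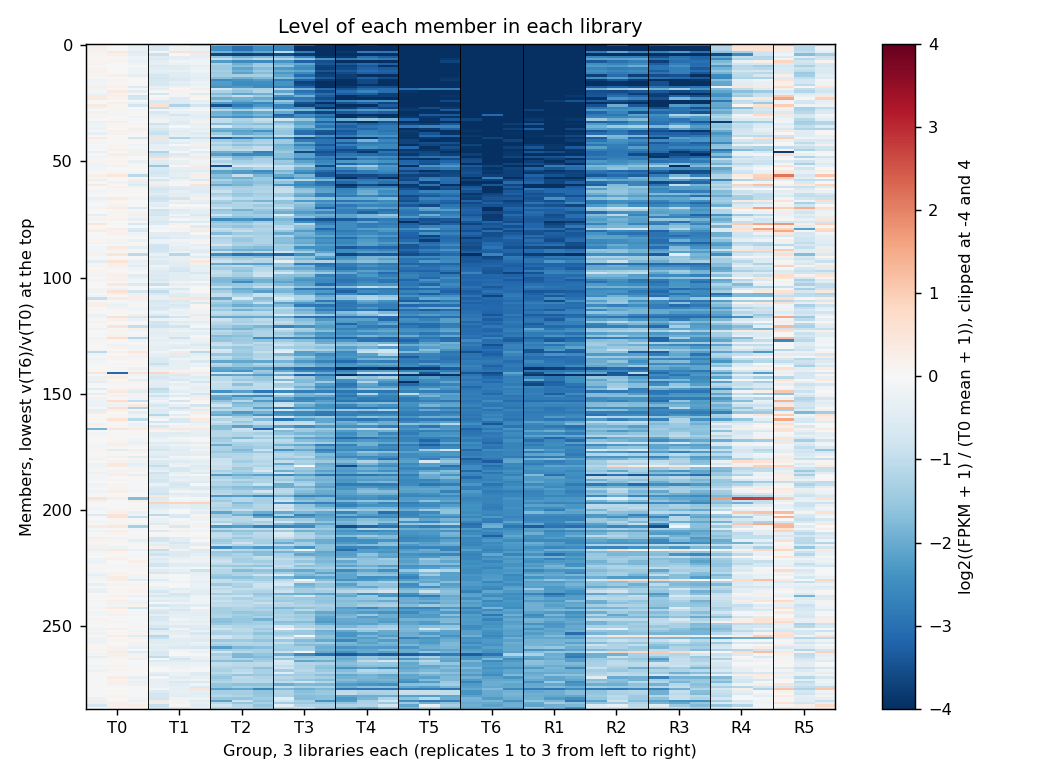
Level of each of the 286 members (one line each, lowest v(T6)/v(T0) at the top) in each of the 36 libraries, as log2((FPKM + 1)/(T0 mean + 1)) with colours clipped at -4 and 4. Most of the field is blue from T2 to R3 and deepest in T6 and R1, and R4 replicate 1 is darker than R4 replicates 2 and 3.

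The comparison of T5 with T3 measured how much of the fall that the T6 limit required came on these days. Of the 285 members tested, 132 were called lower in T5 than in T3, 1 was called higher and 152 were not called. Called means an adjusted p under 0.05 over all 48631 models tested and a change of at least 2-fold, by edgeR's quasi-likelihood test. Over all models 4.7% were called lower and 5.77% higher, while 46.3% of the members tested were called lower. The median log2 fold change was -1.17 in members (quartiles -1.81 and -0.67) and -0.01 in all models tested, and 276 of 285 members had a fitted value below 0. Without T3 replicate 1, the highest of the T3 libraries, 80 members were called lower.

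Among called members that reached 10 CPM and whose groups did not overlap in CPM scaled by TMM factors, the largest fall in T5 relative to T3 was that of Lj2g3v3224500.3, a model of 468 bp at a locus with 3 models. It was at 1.69, 1.86 and 3.54 FPKM in T5, against 48.1, 23.7 and 13.2 FPKM in T3 (log2 fold change -3.45 ± 0.56 SE, edgeR adjusted p = 0.000261). The groups did not overlap, and the T3 libraries differed among themselves in the order of the members' median. This member was above its T0 level on day 1, at 304 ± 77 FPKM in T1 and 192 ± 22 FPKM in T0, and was down to 1.13 ± 0.07 FPKM in T6 (SD, n = 3). After removal it was at 14.5 ± 6.0 FPKM in R2 and 24.7 ± 2.7 FPKM in R3. It reached 157 ± 85 FPKM in R4 and 316 ± 160 FPKM in R5, with replicates far apart on both days.

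Next within the same limits came Lj5g3v1498240.1, the only model of its locus, of 1868 bp and with whole counts in all libraries. It was at 4.14, 2.58 and 5.83 FPKM in T5, against 42.6, 31.1 and 18.0 FPKM in T3 (log2 fold change -2.71 ± 0.37 SE, edgeR adjusted p = 4.68e-05). No T5 library reached the lowest T3 library. Unlike Lj2g3v3224500.3 it had no higher mean in T1, with 98.8 ± 8.6 FPKM in T0, 75.3 ± 8.4 in T1 and 43.4 ± 6.1 in T2, and it regained 64.7 ± 22.7 FPKM in R5.

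The member called higher in T5 than in T3, picked out after its values were seen, was Lj0g3v0072599.1. It was at 0.89, 3.25 and 5.42 FPKM in T5, against 1.15, 1.78 and 0.68 FPKM in T3 (log2 fold change 1.46, edgeR adjusted p = 0.036). The groups overlapped, and 0 members were called higher without T3 replicate 1, T3 replicate 3, T5 replicate 2 or T5 replicate 3.

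The comparison of R1 with T5 set the first day after removal beside a nitrate day that the thresholds had not used. In R1, 2 members were called higher than in T5 and 9 lower, and 274 were not called, where 1.53% of all models were called higher and 1.83% lower. The median log2 fold change of the members was -0.20, against -0.02 in all models. The shares of members called were 0.702% higher and 3.16% lower, and they rest on 2 and 9 members. Among the 14308 tested loci in the T0 range, 1.99% were called higher and 1.20% lower. The median log2 fold change of those loci was 0.105. A missed threshold does not show that R1 equalled T5. In CPM scaled by TMM factors, every R1 library lay below every T5 library in 68 members (23.9%) and in 13.0% of all models. Every R1 library lay above every T5 library in 21 members (7.37%) and in 13.4% of all models. Of lower calls there were 5 when T5 replicate 2 was left out, 3 when R1 replicate 1 was and 4 when R1 replicate 2 was. Over all models these settings called 1.13%, 0.98% and 0.919% lower. DESeq2 called 18 members lower, beside 2.95% of all models. Of higher calls there were 0 when T5 replicate 2 was left out and 1 when either R1 replicate 1 or R1 replicate 2 was.

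Both higher members, picked out after their values were seen, were at low level. Lj3g3v0937980.1 was at 5.17, 2.86 and 1.45 FPKM in R1, against 0.52, 0.74 and 1.16 FPKM in T5. Lj5g3v1669360.1 was at 0.90, 1.18 and 0.60 FPKM in R1, against 0.31, 0.24 and 0.33 FPKM in T5. In both, every R1 library lay above every T5 library, at a small part of the T0 means of 14.2 and 7.38 FPKM.

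The first upward step came between R1 and R2. Of 285 members, 151 were called higher in R2 than in R1, 1 was called lower and 133 were not called, against 3.84% higher and 2.44% lower among all models. The median log2 fold change was 1.37 in members (quartiles 0.83 and 2.04) and 0.00 in all models, and 279 members had a fitted value above 0. By the same CPM, every R2 library lay above every R1 library in 237 members (83.2%) and in 17.4% of all models. The lower member, picked out after its values were seen, was Lj1g3v2159720.1, at 0, 0.39 and 0 FPKM in R2 against 2.04, 0.29 and 0.89 FPKM in R1. Its groups overlapped, and 0 members were called lower without R1 replicate 1, R2 replicate 1 or R2 replicate 3.

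Few members were called in either direction on the third day without nitrate. In R3, 1 member was called higher than in R2 and 3 lower, and 281 were not called, beside 0.613% higher and 0.382% lower among all models. The median log2 fold change was -0.20 in members (quartiles -0.57 and 0.20) and 0.01 in all models, and 177 members were fitted below 0 and 108 above. A missed threshold does not show that R3 equalled R2. Every R3 library lay below every R2 library in 81 members (28.4%) and in 8.63% of all models. Every R3 library lay above every R2 library in 22 members (7.72%), near the 8.98% of all models. Without any 1 of the 6 libraries 1 member was called lower. The count of higher calls was 0 without R2 replicate 1 and 3 without R3 replicate 1. DESeq2 called 3 members higher and 5 lower, beside 0.886% higher and 0.666% lower among all models.

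The called members of this step moved in opposite ways. Lj3g3v0526190.1, one of the most abundant members, was at 24.9, 22.1 and 25.2 FPKM in R3, against 71.2, 56.3 and 54.7 FPKM in R2 (log2 fold change -1.30, edgeR adjusted p = 0.0223). It had held 195 ± 3 FPKM in T0 and 13.3 ± 1.7 FPKM in R1 and was at 79.0 ± 28.9 FPKM in R4, so its R2 level stood above those of R1 and R3 (SD, n = 3). Lj3g3v0290220.2 also stood higher in R2 than in R1 and R3, with 3.71, 2.82 and 2.94 FPKM in R3, against 7.86, 8.28 and 6.95 FPKM in R2 (log2 fold change -1.25, edgeR adjusted p = 0.0304). For neither did the groups overlap. Both calls were lost without any 1 of the 6 libraries, with edgeR adjusted p from 0.0501 to 0.129 for Lj3g3v0526190.1 and from 0.0676 to 0.144 for Lj3g3v0290220.2.

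Lj4g3v2823370.1, with whole counts in all libraries, went the other way. It was at 29.4, 24.9 and 28.6 FPKM in R3, against 11.7, 15.0 and 13.4 FPKM in R2 (log2 fold change 1.09, edgeR adjusted p = 0.00965, and 0.0871 without R2 replicate 1). Its course within nitrate also stood out from the median, with 7.51 ± 0.72 FPKM in T4, 9.21 ± 2.39 in T5, 16.4 ± 1.4 in T6 and 8.85 ± 1.61 in R1. Every T6 library lay above every library of those other days. The third lower call, Lj0g3v0357309.1, was picked out after its values were seen. It was at 0.70, 0.49 and 0.46 FPKM in R3, against 2.62, 3.65 and 1.93 FPKM in R2, and at 19.2, 43.0 and 41.5 FPKM in R4. Its T0 libraries were at 8.46, 6.64 and 0.92 FPKM, so that R4 lay above T0 in every library.

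The second upward step lay between R3 and R4. Of 285 members, 206 were called higher in R4 than in R3, 0 were called lower by edgeR and 79 were not called, against 5.96% higher and 2.35% lower among all models. No member was lower at an unadjusted p under 0.05 (0 members), and DESeq2 also called 0 lower and 211 higher. The median log2 fold change was 1.65 in members (quartiles 1.12 and 2.43) and -0.02 in all models. Every R4 library lay above every R3 library in 222 members (77.9%) and in 16.1% of all models, and 284 members were fitted above 0. Without any 1 of the 6 libraries, 161 to 234 members were called higher, with 234 when R4 replicate 1 was the one left out.

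**Figure D3:**
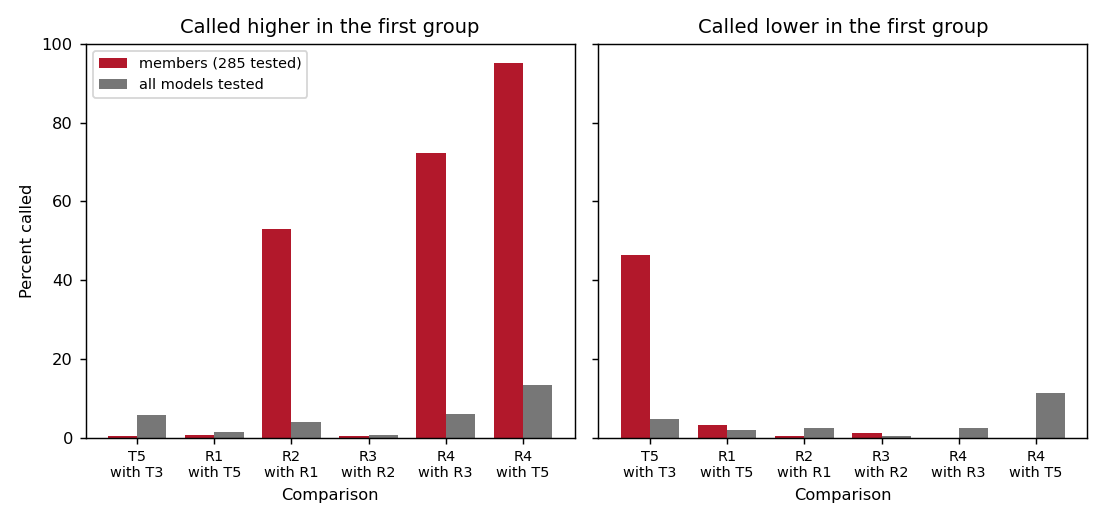
Percent of the members tested and of all models tested that were called higher (left panel) and lower (right panel) in the first group of each of 6 comparisons. Members stand above all models for T5 with T3 on the lower side (46.3% against 4.7%) and for R2 with R1 (53.0% against 3.84%), R4 with R3 (72.3% against 5.96%) and R4 with T5 (95.1% against 13.3%) on the higher side. Among tested loci with a T0 mean FPKM from 5 to below 200, not drawn, these shares were 7.25%, 5.75%, 8.37% and 19.7%.

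Both upward steps could be set side by side, since R2 with R1 and R4 with R3 share no library. Of the members, 114 were called higher in both, which is 75.5% of those called at the first step and 55.3% of those called at the second, and 42 were called at neither. Of all members tested, 72.3% were called higher at the second step and 53.0% at the first, so the shares among members called at the other step lay close to those of all members. Among all models, 771 were called higher in both, 41.3% and 26.6% of the 2 lists. Across 285 members the log2 fold changes of both steps correlated at 0.374 by Pearson and 0.323 by Spearman. For T5 with T3 against R2 with R1 they were -0.431 by Pearson and -0.549 by Spearman, and for T5 with T3 against R4 with R3 they were -0.369 by Pearson and -0.347 by Spearman. These are descriptions across members, which are not independent replicates and share their libraries.

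**Figure D4:**
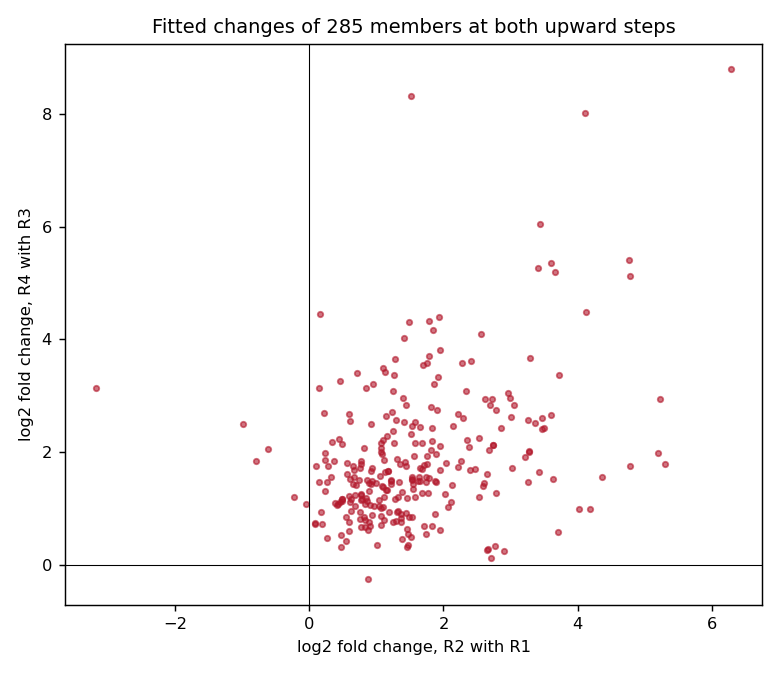
Fitted log2 fold change of each of 285 members in R2 with R1 (x axis) and in R4 with R3 (y axis). Of the members, 279 lie right of 0 and 284 above 0, and the points scatter with a Pearson correlation of 0.374.

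The comparison of R4 with T5 measured the return against a nitrate day outside the thresholds. Of 285 members, 271 were called higher in R4 than in T5, 0 were called lower and 14 were not called, against 13.3% higher and 11.4% lower among all models. Again 0 members were lower at an unadjusted p under 0.05 by edgeR, and DESeq2 called 270 higher and 0 lower. All 285 had a fitted value above 0, with a median log2 fold change of 2.67 (quartiles 1.93 and 3.75) where all models had 0.00. Every R4 library lay above every T5 library in 266 members (93.3%) and in 24.7% of all models. Without any 1 of the 6 libraries the count was 261 to 275. This comparison shares its T5 libraries with the comparisons of T5 with T3 and R1 with T5, and its R4 libraries, replicate 1 among them, with that of R4 with R3.

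Within the same limits, the largest rises in R4 relative to T5 were those of Lj0g3v0203249.1 and Lj5g3v2241220.1, each the only model of its locus and each of 601 bp. Lj0g3v0203249.1 was at 40.5, 132.8 and 140.7 FPKM in R4, against 0.43, 0.08 and 0.13 FPKM in T5. Its fitted log2 fold change was 9.01 (edgeR adjusted p = 2.67e-06), and 8.56 to 10.1 without any 1 of the 6 libraries. Lj5g3v2241220.1 was at 39.4, 130.4 and 136.3 FPKM in R4, against 0.43, 0.08 and 0.13 FPKM in T5 (log2 fold change 8.97, edgeR adjusted p = 3.78e-06). For each of them the T5 levels rest on 11, 2 and 3 estimated counts, so the size of the fold change is imprecise. Their counts lay within 0.25 of each other on the scale of log2(count + 10) in 35 of 36 libraries, and were whole in T5 but not in R4. In R3 replicate 3 they lay apart, at 2.81 FPKM for Lj0g3v0203249.1 and 1.24 FPKM for Lj5g3v2241220.1. How many reads they share was not tested, so their rises cannot be taken as separate.

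**Figure D5:**
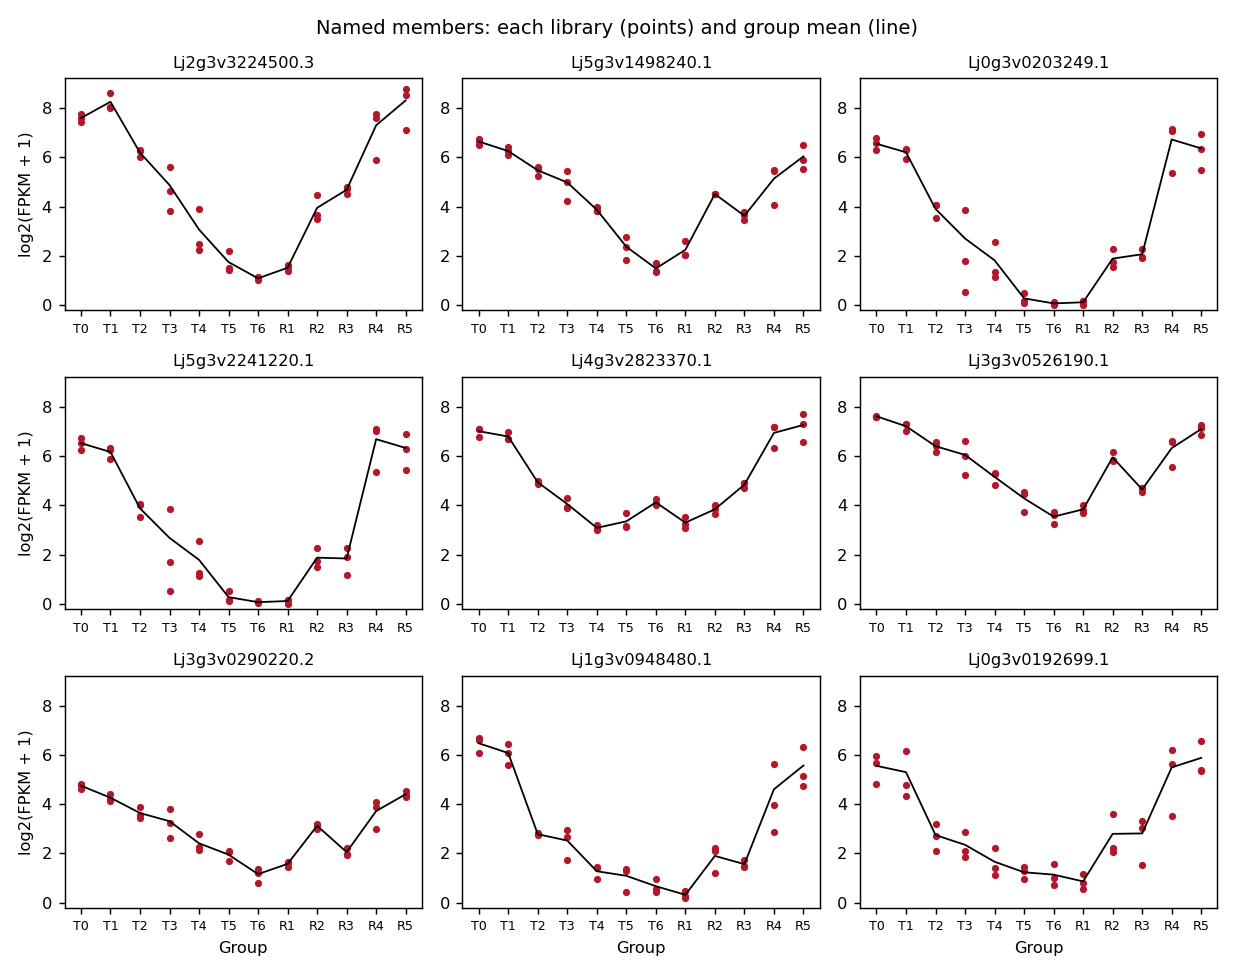
Level of each of 9 named members as log2(FPKM + 1), with each library as a point and the group mean as a line, over groups T0 to T6 and R1 to R5. Lj3g3v0526190.1 and Lj3g3v0290220.2 show a peak in R2, and Lj4g3v2823370.1 rises between T5 and T6 and again between R2 and R3.

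The deepest drops on day 2, which the rule itself chose, were those of Lj1g3v0948480.1 and Lj0g3v0192699.1. Lj1g3v0948480.1, with whole counts, was at 6.14, 5.63 and 5.85 FPKM in T2, against 94.9, 101.7 and 66.5 FPKM in T0. It stayed low through R3 (1.96 ± 0.30 FPKM) and then spread widely, at 6.30, 14.7 and 48.9 FPKM in R4 and 79.4, 25.5 and 34.3 FPKM in R5. Lj0g3v0192699.1, a model of 109 bp, was at 3.27, 5.58 and 8.28 FPKM in T2, against 60.9, 50.1 and 26.9 FPKM in T0. In T1 its libraries were at 70.2, 18.9 and 26.0 FPKM, so that its place above the day 1 limit rests on T1 replicate 1. The greatest v(R5)/v(T6) were those of Lj2g3v3224500.3 (148.8) and Lj0g3v0203249.1 (78.1), described above.

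Members differed in the day by which they had come back. Taking the first removal day from which the group mean, with 1 added, stayed at or above 50% of T0, 5 members were back by R2, 6 by R3, 176 by R4 and 99 only by R5, the day on which the rule required it. Members back by R4 were at a median of 14.7% of T0 in T6 and 88.5% in R5, and those back only by R5 were at 11.8% in T6 and 66.8% in R5. These classes were cut on the R4 means and the rule bounded R5, so their R5 levels are not free of the split. The R4 means include replicate 1, which lay apart. In that library 62 members were at 50% of T0 or more, against 215 in replicate 2 and 236 in replicate 3. In R5, 278 members were at 50% or more in replicate 1, 227 in replicate 2 and 271 in replicate 3. In R5, 74 members had a higher mean than in T0, and 10 were at 1.5 times T0 or more.

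A total of 65 loci met every threshold but the one on R5, and 278 met every threshold but the one on T1. The loci not regained by R5 were at a median of 41.8% of T0 in T2, 26.8% in T3 and 18.1% in T4, where the members were at 40.5%, 30.5% and 19.7%. In T5 they were at 11.7% and the members at 17.1%. Of these 65 loci, 43 were called lower in T5 than in T3 (66.2%), 29 higher in R2 than in R1 (44.6%), 30 higher in R4 than in R3 (46.2%) and 45 higher in R4 than in T5 (69.2%). Their median log2 fold change was 1.03 in R4 with R3 and 1.88 in R4 with T5, beside 1.65 and 2.67 in members. In R3 with R2 their median log2 fold change was -0.65, beside -0.20 in members.

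The loci already lower in T1 were at a median of 56.2% of T0 in T1 and 26.4% in T2, where the members were at 76.7% and 40.5%, and at 11.1% in T6 and 75.4% in R5. Of these 278 loci, 115 were called lower in T5 than in T3 (41.4%), 171 higher in R2 than in R1 (61.5%), 215 higher in R4 than in R3 (77.3%) and 265 higher in R4 than in T5 (95.3%). Their library medians lay as far apart in R4 as those of the members, from -1.58 to -0.44 on the log2 scale. These sets were set beside the members as a description, and the differences between them were not tested.

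The members' median length, derived from counts and FPKM, was 1151 bp (quartiles 613 and 1771), against 1099 bp over all loci with a T0 mean FPKM from 5 to below 200. Single-model loci made up 88.5% of the members and 85.5% of those loci. At the 33 member loci with more than 1 model, 38 of the 41 other models had a T0 mean FPKM of at least 5 and 34 met every threshold, although models of 1 locus can share reads.

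By the first digit of the ID, which names the chromosome in this nomenclature and is 0 for unplaced sequence, 86 members (30.1%) carried 0, against 29.5% of all loci in the T0 range. Digit 1 held 58 members (20.3% against 17.2%) and digit 3 held 26 (9.09% against 12.1%), and the other digits lay closer to the share of all loci. Some members stood next to each other in the order of IDs. Of the 200 members with digits 1 to 6, 38 (19.0%) had another member as the next or previous ID in the table, against 153 of 9887 non-members (1.55%). The 38 formed 22 adjacent pairs. In 2 of these pairs all 36 counts lay within 0.25 of each other on the scale of log2(count + 10), and in 0 of the 22 pairs were both members' counts whole throughout, so at least 1 member of each pair had counts that were not whole. The part of shared reads in this closeness was not tested. Among loci already lower in T1, 62 of 203 (30.5%) had a neighbour of their own set, and among loci not regained by R5 4 of 35 (11.4%).

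Counts that were not whole, as reads split between models give, were common both among the members and among all loci in the T0 range. Of the 286, 101 (35.3%) had whole counts in all 36 libraries (tolerance 0.001), against 30.0% of those loci. Counts identical to those of another row were found in 7 members (2.45%) and in 2.26% of those loci. A near-identical partner among the members was found for 10 members. Of the 101 members with whole counts, 45 were called lower in T5 than in T3 (44.6%), 51 higher in R2 than in R1 (50.5%), 76 higher in R4 than in R3 (75.2%) and 97 higher in R4 than in T5 (96.0%).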

How the data were processed

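The tools named per the submitters' processing notes are fastp 0.22.0 (read trimming), HISAT2 (alignment) and featureCounts (counting). Not given in the sources used here are the build, the annotation, the strand setting and how reads with several matches were counted. The authors deposited estimated counts, of which 49.6% were not whole, and FPKM values for 50526 models, neither pooled over replicates. Of these rows, 1 carried another kind of ID (0.00595% of counts) and stayed in.

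Members were found on the deposited FPKM. The members and lists were chosen with earlier results of these data known. Estimated counts were rounded and tested with edgeR 4.0.16 in R 4.3.3 (TMM, filterByExpr, glmQLFit and glmQLFTest). The 21 libraries of T3, T4, T5 and R1 to R4 were in 1 fit, so that no library of the thresholds entered. The filter kept 48631 models and 285 members; 1 member of low level in those groups was left out. SEs were taken from the quasi-likelihood F. P-values were Benjamini-Hochberg adjusted over all models. The fit was tested on simulated data. The series calls the 3 libraries of a group biological replicates.

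Named members had up to 2 of the largest rises and up to 2 of the largest falls of T5 with T3, R4 with T5 and R3 with R2. Each of these was called, reached 10 CPM in the higher group and had no overlap of libraries. Members with the 2 lowest v(T2)/v(T0) and the 2 highest v(R5)/v(T6) were added. Those said to be picked out after their values were seen were named outside these limits. The gene lists planned for named genes could not be used. Alternatives were RLE factors, no filter, DESeq2 1.42.0, a replicate block, all 36 libraries, counts summed per locus, other pseudocounts, TMM-rescaled FPKM and leaving out each library.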

Additional observations from a re-analysis of the deposited data

How the results depend on the processing

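The number of members depended on the rule's inputs. It was 320 with a pseudocount of 0.5, 206 with 2, 264 with FPKM rescaled by TMM factors (204 of them among the 286), 293 with FPKM summed per locus, and 251 to 323 without any 1 library of T0, T1, T2, T6 or R5. Without a T0 library, 231 to 240 of the 286 stayed members.

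The counts of members lower in T5 than T3 and higher in R2 than R1, in R4 than R3 and in R4 than T5 stayed within 1.5 times under RLE factors, no filter, DESeq2, the replicate block, all 36 libraries and sums per locus. Without any 1 library they were 80 to 154, 109 to 129, 161 to 234 and 261 to 275. The counts lower in R4 than R3 and than T5 were 0 in each setting. Small counts moved: higher in T5 than T3, 2 with DESeq2 and with all 36 libraries, and 0 to 1 without any 1 library; lower in R1 than T5, 18 with DESeq2, and 3 to 10; higher in R1 than T5, 0 to 2; lower in R2 than R1, 0 to 1; higher in R3 than R2, 3 with DESeq2, 2 with all 36 libraries, and 0 to 3; lower in R3 than R2, 5 with DESeq2, and 1 without any 1 library. The causes were not tested; leaving out a library leaves fewer samples.

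With the replicate block, 126 members were lower in T5 than T3, 146 higher in R2 than R1, 203 higher in R4 than R3 and 271 higher in R4 than T5, and no count of calls moved by over 1.5 times. Of 18 same-numbered pairs of libraries, 1 had a correlation of deviations over 0.1 (range -0.253 to 0.122), so the numbers were not taken to pair the libraries.

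With the pseudocount, the median levels by day moved by more than their SD in T2, T4, T5, T6, R1, R2 and R3. Those of T1, T3, R4 and R5 moved by less than their SD. With 0.5 they were -1.43 in T2, -2.56 in T4, -2.92 in T5, -3.31 in T6, -3.23 in R1, -2.02 in R2 and -2.26 in R3. With 2 they were -1.23 in T2, -2.02 in T4, -2.17 in T5, -2.41 in T6, -2.33 in R1, -1.66 in R2 and -1.79 in R3. With TMM-rescaled FPKM, T2 was at -1.48 and R1 at -2.75. Precision is limited by 3 libraries a group, and by depth for members near 0 FPKM in T6 and R1.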
